A study of Mus musculus with 405 samples.

Results

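The 10 genes described here encode smooth muscle actin and proteins that bind or anchor actin filaments: Acta2, Tagln, Cnn1, Cnn2, Myl9, Tpm1, Tpm2, Vcl, Flna and Lima1. They were taken by symbol from the 13304 genes of a table of normalized expression values for a chemical screen, and from a table of counts for the fungicide pyraclostrobin. All 10 were found in both tables. The genes were chosen with earlier results of these data in view, so their levels across most chemicals are given as a description without tests. Topotecan, pyraclostrobin and 3 inhibitors at one concentration were tested. The tests of pyraclostrobin and of the 3 inhibitors are not independent of the choice of genes. The cultures were primary cortical neurons from embryos of C57BL/6J dams crossed to CAST/EiJ males, dated by the labels to embryonic day E15. Each culture received 1 chemical, or the dimethyl sulphoxide vehicle alone, for 24 h, and polyA RNA was sequenced. The screen table held 49 vehicle libraries and 344 libraries from 297 chemicals, with 32 libraries for topotecan at 0.3 µM and 2 libraries for 13 chemicals. The count table held 4 libraries for pyraclostrobin at 0.1 µM and 4 for vehicle, with totals between 2409623 and 7833440 counts. Vehicle replicates 3 and 4 were the deepest, at 7833440 and 7082405 counts, and the pyraclostrobin libraries held between 2409623 and 2550437. By the study's methods an antimitotic was added during culture and some non-neuronal cells remained, so each library is a mixture of cell types.

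In contractile cells, actin filaments built partly from smooth muscle actin slide against myosin, and the same proteins form the stress fibres that pull on focal adhesions in fibroblasts, pericytes and reactive glia. Neurons rely mainly on the cytoplasmic actins and express little of the smooth muscle set. Many genes of the set share a control element, the CArG box, which binds the serum response factor SRF together with cofactors of the myocardin family. Those cofactors respond to the pool of unpolymerized actin, and so link the state of the cytoskeleton to transcription.

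Acta2 encodes smooth muscle alpha actin and lies on chromosome 19 from 34315580 to 34329826 in mm9. Tagln (chromosome 9, 45737711 to 45744141) encodes transgelin, an actin crosslinking protein of smooth muscle, and Cnn1 (chromosome 9, 21903725 to 21914074) and Cnn2 (chromosome 10, 79451329 to 79458807) encode calponins, which bind actin and slow its movement over myosin. Myl9 (chromosome 2, 156601156 to 156607394) encodes the regulatory light chain of smooth muscle myosin. Tpm1 (chromosome 9, 66870397 to 66897213) and Tpm2 (chromosome 4, 43527583 to 43536637) encode tropomyosins, which wind along the filament. Vcl (chromosome 14, 21748655 to 21852895) encodes vinculin, which ties filaments to adhesions. Flna (chromosome X, 71468800 to 71495159) encodes filamin A, which crosslinks filaments, and Lima1 (chromosome 15, 99608901 to 99705859) encodes a LIM protein that bundles them. These positions come from the GENCODE annotation of mm9, the build to which the authors aligned. Exons of Tagln overlap exons of Pcsk7 and exons of Vcl overlap exons of Ap3m1, each on the opposite strand, and no source used here says that counting used strand. Of the 1732 stretches of 50 bases in coding transcripts of Acta2, 7 also occurred in Actg1, and none of those in the other 9 genes occurred in a transcript of another gene.

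Promoters are shown because the genes move together in the data below. The window of 250 bases before the start site was searched in RefSeq sequence of GRCm38.p6 for the CArG box, which is CC, then 6 bases that are A or T, then GG, and which reads the same way on both strands. Windows were held for 9 of the 10 genes, Tagln being the exception. An exact box was found for 4 of the 9, Cnn2, Myl9, Vcl and Lima1, against 1.47% of all 32851 windows. Acta2 held 2 boxes and Myl9 held 1 more with a single G or C among the 6 inner bases, a form present in 7.24% of all windows. Neither form was found in the windows of Cnn1, Tpm1, Tpm2 and Flna. The boxes are in capitals in the lines that follow, each written 5′ to 3′ on the strand of the gene.
Acta2, chr19:34255383-34255472, minus strand: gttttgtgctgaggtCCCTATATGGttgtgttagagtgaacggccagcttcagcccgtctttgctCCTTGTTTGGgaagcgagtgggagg
Cnn2, chr10:79988529-79988568, plus strand: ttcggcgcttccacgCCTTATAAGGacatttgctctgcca
Myl9, chr2:156775288-156775389, plus strand: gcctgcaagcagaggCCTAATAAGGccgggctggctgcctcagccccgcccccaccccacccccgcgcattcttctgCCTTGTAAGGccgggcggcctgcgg
Vcl, chr14:20929156-20929195, plus strand: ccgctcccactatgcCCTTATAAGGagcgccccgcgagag
Lima1, chr15:99820172-99820211, minus strand: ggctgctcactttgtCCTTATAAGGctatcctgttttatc
The 10 letters of the exact box were identical in Cnn2, Vcl and Lima1, and the box began 56, 227 and 47 bases before their start sites. Among the lists described further on, an exact box was found for 3 of the 3 other actins with a window, 0 of 19 other smooth muscle contractile genes and 3 of 20 focal adhesion genes. A match describes letters in these windows and was not tested as a binding site.

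Levels of the genes in unexposed cultures can be compared with each other only in the count table, after division by exon length. On that scale (CPM, counts scaled to the size of the library, per kilobase of exon) the vehicle libraries gave 35.9 ± 10.1 (SD, n = 4) for Flna, 30.4 ± 8.75 for Tagln, 27.7 ± 0.837 for Tpm1 and 24.7 ± 13.6 for Acta2. These 4 were not tested against each other. The SD of Acta2 is widened by vehicle replicate 1, which stood at 80.2 CPM against 29.4 to 34.5 CPM in the others. Cnn2 and Myl9 both stood at 7.69 and 7.68, Vcl at 4.53 and Lima1 at 1.28 CPM per kilobase. Cnn1 and Tpm2 were the lowest, at 0.624 ± 0.315 and 0.186 ± 0.154 CPM per kilobase. With pyraclostrobin the order was led by Acta2 (386 ± 59.7) and Tagln (361 ± 56.1 CPM per kilobase), above Flna at 131 ± 18.8. Tpm1, the third highest without the fungicide, was sixth with it at 50.4 ± 5.46 CPM per kilobase.

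The count table asked how 24 h with pyraclostrobin, which blocks the outer quinone site of mitochondrial complex III, changed the genes in replicated cultures. Acta2 was measured at 80.2, 31.9, 29.4 and 34.5 CPM in the vehicle libraries and at 781, 623, 774 and 571 CPM in the pyraclostrobin libraries. The groups lay far apart, and vehicle replicate 1 was the highest of its group. The log2 fold change was 3.99 ± 0.31 (SE), a 15.9-fold rise (edgeR quasi-likelihood test, adjusted p = 1.14e-05). Tagln stood at 66.0, 37.4, 36.9 and 52.4 CPM with vehicle and at 677, 515, 614 and 485 CPM with pyraclostrobin. Its log2 fold change was 3.58 ± 0.21 (edgeR adjusted p = 2.82e-06), and no library of either group came near the other group.

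The calponins rose too. Cnn2 stood at 34.6, 12.5, 14.8 and 13.8 CPM in the vehicle libraries and at 210, 133, 174 and 126 CPM in the pyraclostrobin libraries, a log2 fold change of 3.12 ± 0.31. Here again vehicle replicate 1 was the highest of the 4 unexposed cultures. Cnn1 was nearly absent without the fungicide, with 24 counts over the 4 vehicle libraries together against 250 over the 4 exposed ones. These sums are not scaled to depth. In CPM Cnn1 stood between 0.81 and 2.50 with vehicle and between 16.6 and 35.3 with pyraclostrobin, and its fitted log2 fold change was 4.19 ± 0.37.

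Among the myosin and tropomyosin genes, Myl9 went from between 6.20 and 15.0 CPM with vehicle to between 61.6 and 99.7 CPM with pyraclostrobin, a log2 fold change of 3.32 ± 0.27. The 2 tropomyosins differed in size of change. Tpm2 had 12 counts over the 4 vehicle libraries, 0 of them in replicate 2, and 289 over the exposed libraries. Scaled to depth it stood between 0 and 1.05 CPM with vehicle and between 15.7 and 40.3 CPM with pyraclostrobin. The fitted log2 fold change of Tpm2 was 5.43 ± 0.48 and depends on the prior count that the fit adds. With 0 vehicle libraries at 10 counts, Tpm2 entered the test only through the exposed libraries. The size of its change is therefore not ranked against other genes. Tpm1, which neurons also express, stood at 183, 186, 174 and 177 CPM with vehicle and at 309, 304, 379.4 and 314 CPM with pyraclostrobin. Its log2 fold change of 0.86 ± 0.11 was the smallest of the 10, and its groups were still separate.

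The anchoring and crosslinking genes changed between these extremes. Vcl stood at 22.1, 26.9, 21.2 and 24.6 CPM with vehicle and at 165, 129, 149 and 136 CPM with pyraclostrobin. Its log2 fold change was 2.62 ± 0.14, with the third smallest p of the table (edgeR adjusted p = 1.87e-06). Lima1 rose from between 8.56 and 10.5 CPM to between 57.3 and 73.8 CPM, a log2 fold change of 2.85 ± 0.16. Flna, the most abundant of the set, stood at 200, 394, 345 and 409 CPM with vehicle and at 1433, 1071, 1314 and 1089 CPM with pyraclostrobin. For Flna it was vehicle replicate 1 that lay lowest, and the log2 fold change was 1.86 ± 0.21.

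**Figure D1:**
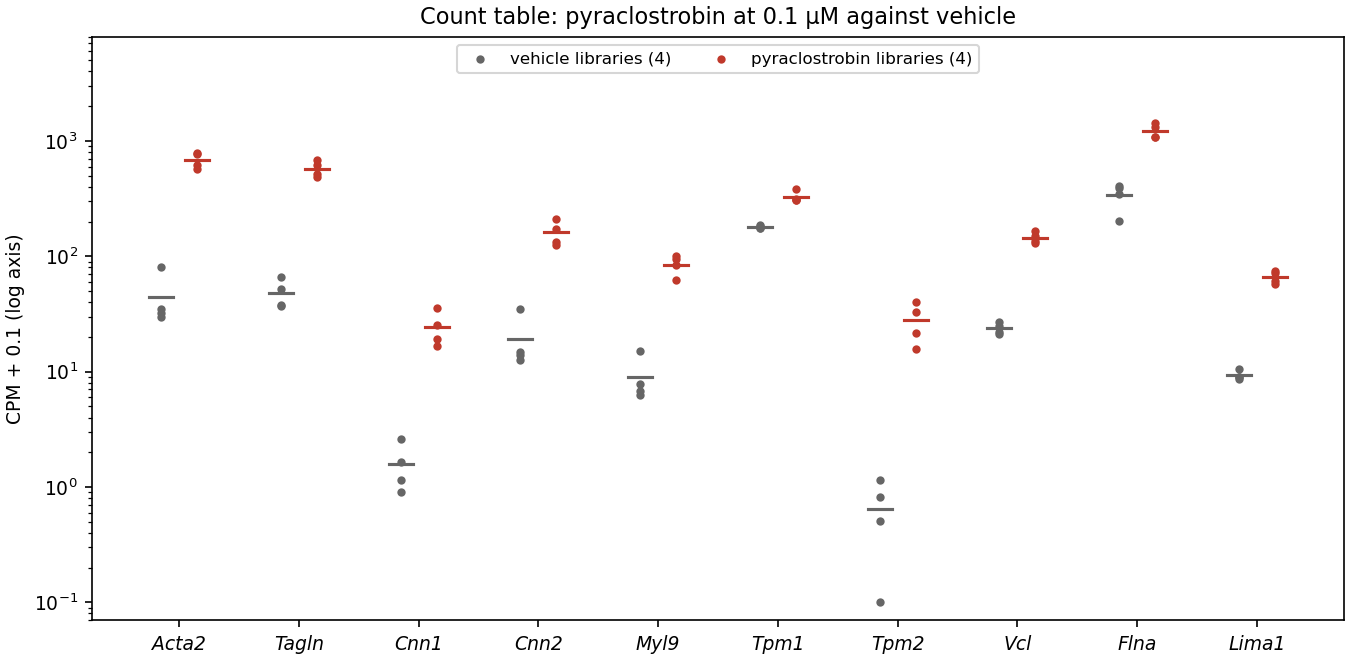
CPM (plus 0.1, log axis) of the 10 genes in the 4 vehicle libraries (grey) and the 4 pyraclostrobin libraries (red) of the count table, with a bar at each mean. In all 10 genes the lowest pyraclostrobin library lies above the highest vehicle library, and on this axis the gap is narrowest in Tpm1 and widest in Tpm2.

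All 10 genes passed the adjusted threshold of 0.01 as higher, against 12.1% of the genes tested, and in all 10 every pyraclostrobin library was above every vehicle library, against 18.2% of genes. The genes were chosen with earlier results of these data known, so these shares are a description and not independent support. The median log2 fold change of the 10 was 3.22, against -0.0021 over all genes, and 34 genes reached that value. Pyraclostrobin replicate 1 is also the screen's pyraclostrobin library, on which the choice of genes partly rests. In a fit without it and without the vehicle library of the same number, the 8 genes that could be tested were all called higher, with Acta2 at a log2 fold change of 4.36. That fit was chosen after seeing the data. Its libraries belong to the same count table, so it is not an independent check. Cnn1 and Tpm2 passed the filter of at least 10 counts in at least 4 libraries only through the exposed libraries, so their large values follow in part from how they entered. The study's text speaks of biological replicates and matched controls without tying each library to a culture, so the p-values measure the spread between these libraries, part of which may be technical.

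Genes of the same machinery outside the 10 were read from lists made by function. Of 20 other smooth muscle contractile genes 17 were tested, and 12 rose, 0 fell and 5 did not pass, with a median log2 fold change of 1.86. Lmod1 (leiomodin, 3.25 ± 0.31), Cald1 (caldesmon, 2.86 ± 0.18), Myh9 (nonmuscle myosin heavy chain, 2.47 ± 0.16) and Tagln2 (2.20 ± 0.25) had the largest changes. Of 26 focal adhesion and stress fibre genes 21 rose and 0 fell, led by Palld (palladin, 3.93 ± 0.31), Flnc (filamin C, 3.72 ± 0.26), Itga5 (an integrin chain, 3.02 ± 0.50) and Pdlim5 (2.98 ± 0.24), with a median of 1.65. With vehicle Itga5 stood between 0 and 3.57 CPM and Palld between 1.43 and 3.00 CPM, so their fold changes start from few counts. The other actins gave smaller differences than Acta2, and 0 of the 4 tested passed. The cytoplasmic Actb gave a log2 fold change of 0.19 ± 0.13 (edgeR adjusted p = 0.275) and Actg1 of 0.16 ± 0.23 (edgeR adjusted p = 0.623). The skeletal Acta1 gave 1.08 ± 0.39 (edgeR adjusted p = 0.0529) and the cardiac Actc1 gave 0.68 ± 0.38 (edgeR adjusted p = 0.195). The smooth muscle gamma actin Actg2 had between 0 and 3 counts in every library and was not tested.

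Of the factors that act on CArG boxes few passed at the RNA level. Elk3, a partner of SRF, rose by 2.19 ± 0.33 on the log2 scale and was the 1 of 6 that passed. Srf itself gave 0.70 ± 0.19 (edgeR adjusted p = 0.0159) and its cofactor Mkl1 gave -0.55 ± 0.15 (edgeR adjusted p = 0.0178), both short of the 0.01 threshold. Myocd (myocardin), the cofactor of smooth muscle, had between 0 and 3 counts. Among 15 neuronal regulators of the cytoskeleton 1 rose, the actin severing protein Gsn at 2.74 ± 0.33, and 4 fell. Among those 4 were the microtubule regulators Stmn1, by 1.09, and Stmn2, by 1.04 on the log2 scale. Coro1a fell by 0.84.

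Markers of several cell types moved in the same libraries. The neuron list had the highest summed level of the cell type lists in the vehicle libraries, between 8272 and 8984 CPM, as the label of the cultures has it, and that sum lay between 3323 and 4513 CPM with pyraclostrobin. Of its 12 genes 10 fell, with Slc17a7 at -1.58 ± 0.17 and Syt1 at -1.46 ± 0.19. Fibroblast and meningeal markers rose for 5 of the 6 tested, with Fn1 at 3.01 ± 0.19 and Col1a1 at 2.86 ± 0.29. Their summed level lay between 230 and 524 CPM with vehicle and between 1609 and 2414 CPM with pyraclostrobin. Most of that sum was Vim, between 158 and 408 CPM with vehicle and between 1100 and 1767 CPM with pyraclostrobin. Dcn did not pass (-0.48 ± 0.48), and Lum, Pdgfra and S100a4 had at most 10 counts in any library. Pericyte and smooth muscle markers rose for 4 of 4 tested, Mcam (2.64 ± 0.26), Notch3 (2.08 ± 0.17), Cspg4 (2.08 ± 0.18) and Pdgfrb (1.94 ± 0.32), from a sum between 27.5 and 32.2 CPM to one between 122 and 162 CPM. The other 6 of that list had at most 10 counts in any library. Myh11 and Des, which define mature smooth muscle, had between 0 and 10 and between 0 and 2 counts. Of the microglia markers 5 of 5 tested rose, for example Trem2 by 2.87 ± 0.44 on the log2 scale. Trem2 was low in the vehicle libraries, between 0.90 and 4.28 CPM. Aif1, Itgam, P2ry12 and Tmem119 of that list had too few counts to be tested. For astrocytes 1 of 7 passed, Gja1 at 2.22 ± 0.41, but 6 of 7 had a positive log2 fold change and their median was 1.96, with a summed level between 723 and 1223 CPM with vehicle and between 1054 and 3615 CPM with pyraclostrobin. Replicate 1 stood apart in both groups here, with Gfap at 151 CPM against 21.02 to 29.1 in the other vehicle libraries and at 640 CPM against 60.1 to 93.6 in the other exposed ones. Gfap was also higher with pyraclostrobin in the other libraries. The part of the astrocyte markers in the values of Acta2 was not tested, with or without replicate 1. Of the endothelial markers Kdr alone was tested and rose by 1.56 ± 0.29, and Cldn5 and Ly6c1 were at 0 in all 8 libraries. In the oligodendrocyte lineage list 1 of 5 rose (Olig2) and 1 fell (Mog, -0.97 ± 0.23). In such mixed cultures fewer cells of a type and less RNA per cell cannot be told apart, and the part of these shifts in the result for the 10 genes was not tested.

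The screen gives the genes over 297 chemicals as log2 values centred on each gene's own median, so that 0 is the middle of all libraries and no level can be read. The vehicle libraries alone varied widely. Acta2 ran from -2.76 through a median of -0.06 to 0.93 over the 49, with an SD of 0.64, and Cnn1 and Tpm2 had SDs of 0.78. Tpm1, Flna and Vcl were far steadier, with SDs of 0.11, 0.16 and 0.23. Over all libraries the spread of Tpm2 was above that of 97.9% of genes and that of Tpm1 above 10.0%. By the limit the study set for clustering, an SD over 0.1 on the log10 scale, Tpm1, Vcl and Flna were not among the 5121 genes on which the clusters were built.

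Chemicals stood above the highest vehicle library most often for Myl9 (24 of 297), Cnn2 (23), Tagln (22), Acta2 (20) and Tpm2 (18). Lima1 and Flna followed with 11 each, Tpm1 with 10, Cnn1 with 9 and Vcl with 5. The median over the 10 genes was 14.5 chemicals, beside 4 over all genes of the table. Several of these counts rest on 1 high vehicle library. Above the second highest there were 16 chemicals for Vcl, 19 for Tpm1, 18 for Flna and 33 for Tagln, and the medians were 20.5 over the 10 genes and 10 over all genes. Below the lowest vehicle library were 17 chemicals for Lima1, 13 each for Flna and Tpm1 and 11 for Vcl, but 7 for Tagln, 5 for Tpm2, 3 for Cnn2, 1 for Cnn1 and 0 for Acta2 and Myl9, beside a median of 5 over all genes. The low counts also rest on single vehicle libraries. Below the second lowest there were 1 chemical for Acta2, 6 for Myl9, 10 for Cnn1, 13 for Tpm2 and 23 for Flna, and the medians were 10.5 over the 10 genes and 12 over all genes.

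**Figure D2:**
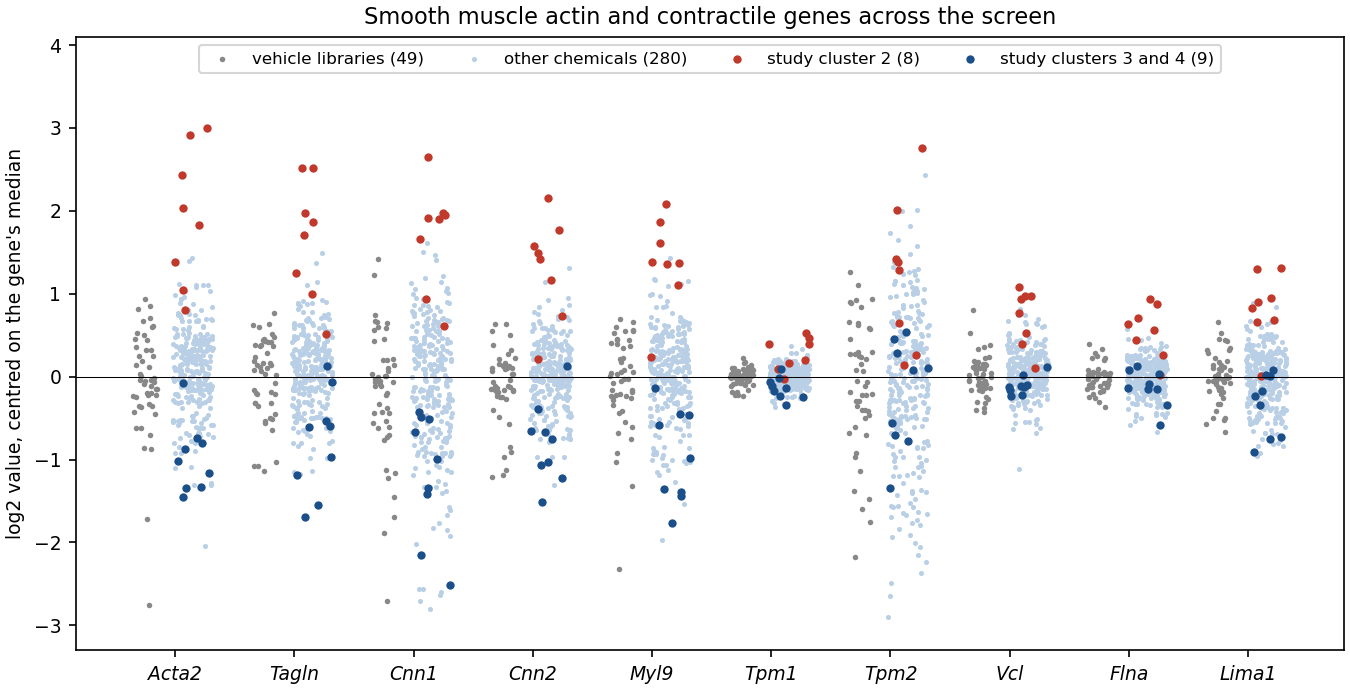
Values of the 10 genes (log2, centred on each gene's median) in 49 vehicle libraries (grey), in 280 chemicals outside clusters 2, 3 and 4 (pale blue), in the 8 chemicals of cluster 2 (red) and in the 9 of clusters 3 and 4 (dark blue), a chemical being the median of its libraries. The red points lie high in every gene, with a cluster median of 1.93 for Acta2 and 0.30 for Tpm1, and Tpm1, Vcl and Flna have the narrowest spread.

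The study grouped chemicals by expression, and its cluster 2 holds 8 chemicals, most of them inhibitors of mitochondrial complex I or III. In that cluster the median of Acta2 was 1.93, of Cnn1 1.91, of Tagln 1.79, of Cnn2 1.45, of Myl9 1.38 and of Tpm2 1.33. Vcl, Lima1 and Flna had medians of 0.85, 0.86 and 0.60, and Tpm1 of 0.30. Tpm1 had the smallest value both here and in the counts. Tpm2, whose large value in the counts follows in part from how it entered that test, stood sixth here. Acta2, Tagln, Cnn2, Myl9 and Lima1 were above the highest vehicle library with 7 of the 8 chemicals, as were 0.428% of all genes. With all 8 chemicals 0 of the 10 were, and 0.00752% of all genes. The chemicals were clustered on most of these values, so this is a description.

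The mean of the 10 genes orders the chemicals, and the vehicle libraries ran from -0.80 to 0.42 on that mean. Pyraclostrobin was highest at 1.77, with Acta2 at 2.99, Cnn1 at 2.65 and Tagln at 2.51, and all 10 genes above every vehicle library. Fenpyroximate, a complex I inhibitor also used at 0.1 µM, stood at 1.71, and its Tpm2 of 2.76 was the highest of any chemical. Trifloxystrobin (1.40), famoxadone (1.27) and fenamidone (1.25), all complex III inhibitors at 10 µM, came next, separated by 0.31 from fenpyroximate and by 0.27 from the chemical below.

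Outside cluster 2 the highest was diethylhexyl pthalate at 0.97, a plasticizer with 7 of the 10 genes above every vehicle library and Cnn1 at 1.61. Iodosulfuron-methyl-sodium, a herbicide, stood at 0.84 with 8 genes above every vehicle library but Cnn1 at -0.05. Metam-sodium hydrate closed the 10 highest at 0.71, with Acta2, Tagln, Cnn2, Myl9 and Tpm2 between 1.12 and 1.18 and Lima1 at -0.10. Each of these 3 rests on 1 library, as do pyraclostrobin, fenpyroximate, trifloxystrobin and oxyfluorfen among the 10 highest. Between libraries of the same chemical the mean of the 10 genes differed by a median of 0.19, and by up to 0.88 for picloram. Rotenone, a complex I inhibitor at 0.01 µM, gave 0.76 and 0.89 in its 2 libraries, and oxyfluorfen, a herbicide that blocks haem synthesis, gave 0.75 with Cnn1 at 1.90 and Myl9 at 1.61 beside Tpm2 at 0.14 and Flna at 0.01. In all, 23 chemicals had a mean above every vehicle library, 7 of them from cluster 2, and 8 lay above the vehicle mean plus 3 SD. Pyridaben, the remaining member of cluster 2, stood at 0.31 with 0 genes above the vehicle range.

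Marker lists were read in these high chemicals as the median difference from the vehicle median. With pyraclostrobin, fenpyroximate, trifloxystrobin, famoxadone and fenamidone it lay between 0.96 and 1.39 for the fibroblast and meningeal markers, between 0.78 and 0.93 for the pericyte and smooth muscle markers and between -0.60 and -0.84 for the neuron markers. With iodosulfuron-methyl-sodium and metam-sodium hydrate the same medians were -0.13 and -0.30 for fibroblast, 0.51 and -0.04 for pericyte and -0.04 and -0.10 for neuron markers. Diethylhexyl pthalate gave 0.42, 0.25 and -0.17 for the 3 lists. The part of these markers in the values of the 10 genes was not tested.

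**Figure D3:**
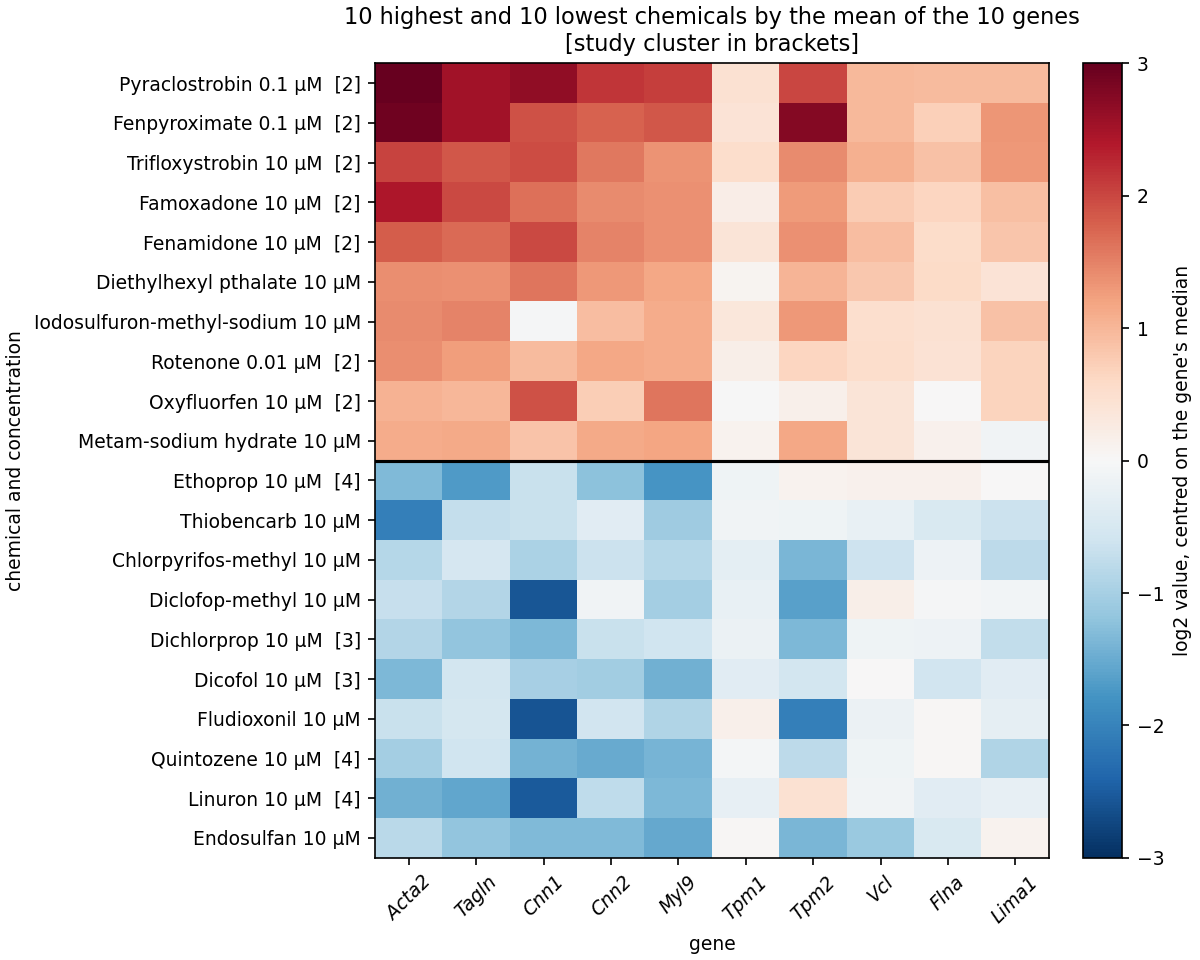
Values (log2, centred on each gene's median) of the 10 genes in the 10 chemicals with the highest and the 10 with the lowest mean of the 10, from 1.77 for pyraclostrobin to -0.90 for endosulfan, with the study cluster in brackets. The upper block is red in nearly every gene, with Tpm1 pale throughout, and the lower block is blue chiefly in Acta2, Tagln, Cnn1, Cnn2 and Myl9.

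Grouped by known target, the respiratory inhibitors were uneven. Of the inhibitors of the outer quinone site, pyraclostrobin and azoxystrobin were both strobilurins at 0.1 µM. Pyraclostrobin gave 1.77 on the mean of the 10 genes and azoxystrobin gave 0.27 and -0.24 in its 2 libraries, with Acta2 at 0.11 and -0.29. Fluoxastrobin, another strobilurin, at 1 µM, gave 0.18. Cyazofamid, which blocks the inner quinone site, gave -0.12 at 10 µM, and the complex II inhibitors boscalid, carboxin and flutolanil gave -0.02, 0.18 and 0.04 at that concentration. Among complex I inhibitors tebufenpyrad at 0.01 µM gave -0.22, beside 0.83 for rotenone at the same concentration and 0.31 for pyridaben beside 1.71 for fenpyroximate at 0.1 µM. The uncouplers niclosamide at 1 µM and fluazinam at 0.1 µM gave 0.39 and 0.08. None of these differences was tested, since the choice of genes used them.

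The 3 outer site inhibitors given at 10 µM differ in class, trifloxystrobin being a strobilurin, famoxadone an oxazolidinedione and fenamidone an imidazolinone, and the 3 pairs among them were tested. Famoxadone gave Acta2 values of 1.95 and 2.92 in its 2 libraries, fenamidone gave 1.95 and 1.70, and the single trifloxystrobin library gave 2.03. For Tagln the same libraries gave 1.90 and 2.06, 1.82 and 1.60, and 1.87. For Acta2 the trifloxystrobin library lay between the 2 of famoxadone, and the lower famoxadone library was level with the higher of fenamidone. For Tagln both famoxadone libraries lay above trifloxystrobin, and both fenamidone libraries below it. In limma, with p-values adjusted over all genes and the 3 pairs together, 0 of the 30 differences of the 10 genes passed 0.05, 1 had an unadjusted p under 0.05 (Tpm1, trifloxystrobin minus famoxadone, 0.33 with a 95% interval from 0.05 to 0.62, adjusted p = 1.00), and 0.0225% of all 39912 tests passed. For Acta2 famoxadone minus fenamidone was 0.61 with a 95% interval from -0.47 to 1.68, and trifloxystrobin minus fenamidone was 0.21 with an interval from -1.11 to 1.53. The 1 trifloxystrobin library has no spread of its own, so the pairs with it borrow the spread of the other groups and assume that it varies like them, and none of these values is independent of the choice of genes for being high with these compounds. The interval for Tpm2 ran from -1.54 to 1.35 in the first pair. In that pair the intervals of Tpm1, Flna and Vcl stayed within 0.63 of 0 on either side. Those of Acta2, Tagln, Cnn1 and Tpm2 took in a change of 1 on the log2 scale, so a p that misses the threshold does not show that the compounds act alike.

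At the low end of the order stood endosulfan at -0.90, an insecticide, with Myl9 at -1.54 and Vcl at -1.12, the lowest Vcl of any chemical. Linuron (-0.81) and quintozene (-0.78), both of cluster 4, came next, then fludioxonil (-0.76), dicofol and dichlorprop (both -0.72, cluster 3), diclofop-methyl (-0.71), chlorpyrifos-methyl (-0.70), thiobencarb and ethoprop (both -0.64, the second from cluster 4). Of these 10, 5 belonged to clusters 3 and 4, and 2 of all chemicals, endosulfan and linuron, had a mean below every vehicle library. Each of the 10 rests on a single library. Their patterns differed by gene. Fludioxonil and diclofop-methyl were low mainly in Cnn1 (-2.60 and -2.56) and Tpm2 (-2.05 and -1.63), the genes with the widest spread in vehicle. Thiobencarb was lowest in Acta2, at -2.05 the lowest of any chemical, and ethoprop was low in Tagln (-1.69) and Myl9 (-1.77) with Tpm2 at 0.11.

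The 5 chemicals of cluster 3 and the 4 of cluster 4 pointed down in the same genes. In cluster 4 the medians were -1.25 for Acta2, -1.26 for Tagln, -1.15 for Cnn2 and -1.37 for Myl9, but 0.28 for Tpm2 and -0.06 for Flna. In cluster 3 Acta2 had a median of -0.80 and Tpm2 of -0.56. Over both clusters 7 of the 10 genes were below the vehicle median with at least 8 of the 9 chemicals, as were 6.24% of all genes, the exceptions being Tpm2, Flna and Lima1. The low values of Acta2 in these clusters lay within the range of the vehicle libraries. Those of Myl9 did so only through 1 vehicle library at -2.33, the next standing at -1.32. Against vehicle the median over both clusters was -0.39 for pericyte and smooth muscle markers (5 of 5 lower), -0.35 for fibroblast markers (5 of 6), -0.53 for endothelial markers (2 of 2), -0.42 for microglia markers (3 of 4), -0.28 for astrocyte markers (6 of 7) and 0.08 for neuron markers (1 of 12). It was -0.45 for the 10 genes (9 of 10 lower), and the part of the markers in it was not tested.

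Topotecan, which inhibits topoisomerase 1, has enough libraries for a test, which uses the same vehicle libraries as the ranges given so far. With topotecan at 0.3 µM, 4 of the 10 genes rose, 0 fell and 6 did not pass (limma, adjusted threshold 0.05), beside 24.9% of genes higher and 20.9% lower over the table, 45.8% in all. Lima1 ran from -0.27 through a median of 0.38 to 0.98 in the 32 topotecan libraries and from -0.66 through -0.02 to 0.65 in the 49 vehicle libraries. The groups overlapped, with 30 of 32 topotecan libraries above the vehicle median, and the difference was 0.41 ± 0.06 (SE, adjusted p = 9.16e-08). Tpm1 differed by 0.19 ± 0.03 (limma adjusted p = 3.56e-10), with 31 of 32 topotecan libraries above the vehicle median and 12 above the highest vehicle library. Flna differed by 0.20 ± 0.04 (limma adjusted p = 1.12e-05) and Cnn2 by 0.29 ± 0.09 (limma adjusted p = 0.00476).

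Acta2 and the other genes that led the response to pyraclostrobin gave small differences with topotecan. Acta2 differed by -0.13 with a 95% interval from -0.38 to 0.12, Tagln by 0.07 (-0.13 to 0.26), Cnn1 by -0.03 (-0.36 to 0.30) and Myl9 by 0.10 (-0.13 to 0.33). These intervals leave out a change of the size seen in cluster 2. Tpm2 differed by -0.34 (-0.68 to 0.01, limma adjusted p = 0.106) and Vcl by -0.11 (-0.21 to -0.01, limma adjusted p = 0.0766). The single camptothecin library, at 0.3 µM, stood at -1.09 for Acta2 and 0.61 for Lima1, and the irinotecan library, at 10 µM, at 0.07 and 0.49.

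**Figure D4:**
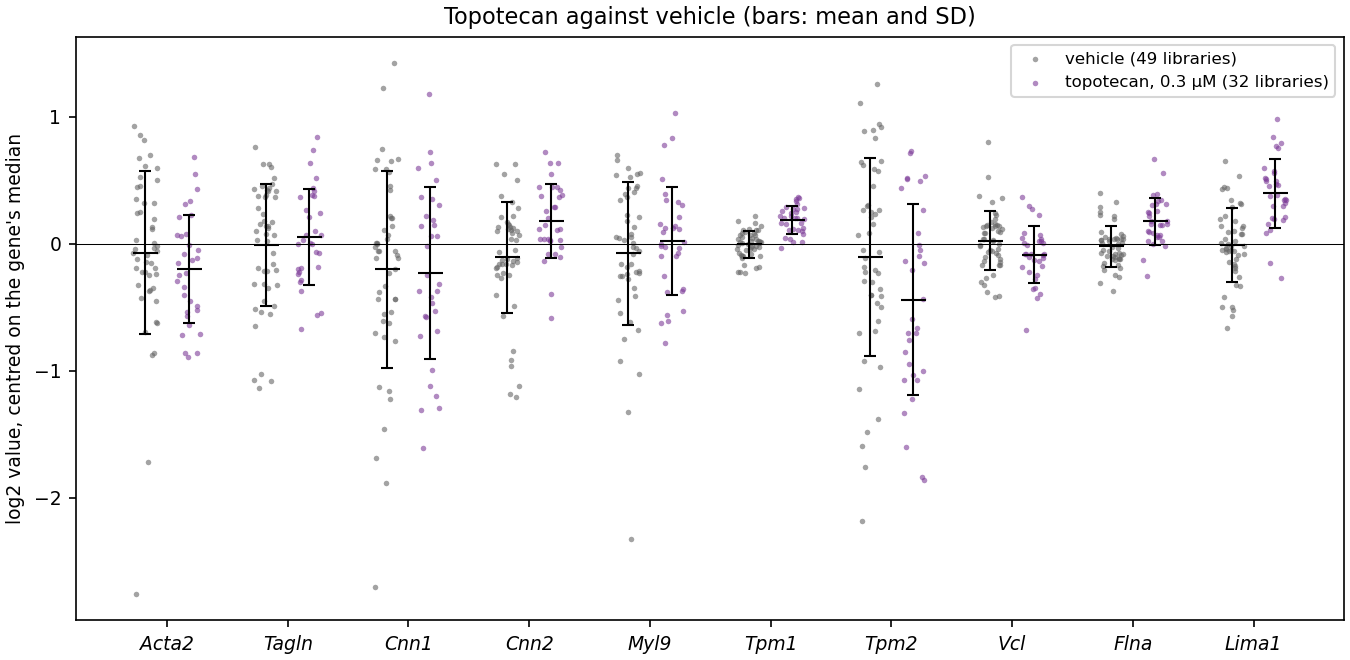
Values of the 10 genes (log2, centred on each gene's median) in 49 vehicle libraries (grey) and 32 topotecan libraries (purple), with mean and SD in black. The topotecan means of Tpm1 (0.19), Flna (0.18) and Lima1 (0.40) stand above those of vehicle, and the clouds of Acta2, Tagln, Cnn1 and Myl9 overlap almost fully.

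Over all genes 24.9% rose with topotecan and 20.9% fell, and the counts in the lists are to be read beside those shares. Of the related lists, 7 of 17 other contractile genes rose and 2 fell. Among them were Tagln2 at 0.61 ± 0.08, Smtn at 0.40 ± 0.14, Myl12a at 0.32 ± 0.09 and Tagln3 at 0.29 ± 0.04. Of 26 focal adhesion genes 7 rose (Tgfb1i1, 0.48 ± 0.08, and Flnc, 0.46 ± 0.09) and 4 fell (Tln2, -0.69 ± 0.04, and Lpp, -0.64 ± 0.07). The counts of that list lie near the shares over all genes. Actg1 rose by 0.10 ± 0.03 and Acta1 by 0.34 ± 0.14, while Actb differed by 0.0047 ± 0.019. Among the factors 3 of 6 fell, Elk4 by 0.29, Mkl1 by 0.22 and Mkl2 by 0.11 on the log2 scale. Of the 15 neuronal regulators of the cytoskeleton 2 rose and 4 fell, with Stmn2 at -0.22 ± 0.02 and Cttn at 0.16 ± 0.02. In the marker lists 9 of 12 neuron genes fell (Syt1, -1.38 ± 0.05) and 2 rose, 5 of 7 astrocyte genes fell (Gfap, -0.72 ± 0.09), 1 of 4 microglia genes fell (Cx3cr1, -0.60 ± 0.12), and 0 of 5 pericyte and smooth muscle genes passed. Fibroblast markers were split, Vim rising by 0.32 ± 0.05 and Dcn falling by 0.49. Endothelial markers were also split, Slco1a4 at 0.58 ± 0.16 and Kdr at -0.27 ± 0.10, and in the oligodendrocyte lineage list 2 rose and 1 fell (Olig1, -0.39 ± 0.06). The part of these shifts in the values of the 10 genes was not tested.

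How far the genes vary together can be described by Spearman correlations across chemicals, which share normalization and mixed cultures and carry no p. Over the 297 chemicals all 45 pairs were positive, with a median of 0.34. Acta2, Tagln, Cnn2 and Myl9 formed the tightest group, their 6 pairs running from 0.48 (Cnn2 and Myl9) to 0.74 (Acta2 and Tagln) with a median of 0.61. Tpm2 was the loosest member, with 0.16 to Myl9. Without the 17 chemicals of clusters 2, 3 and 4 the median of the 45 pairs was 0.26 and that of the group of 4 was 0.56. Over the 49 vehicle libraries the group of 4 had a median of 0.68 and Acta2 and Tagln reached 0.88, while 5 of the 45 pairs turned negative and Acta2 with Cnn1 gave 0.14. In the 32 topotecan libraries Acta2 and Tagln gave 0.75. Acta2 and Tagln were the most alike of the 45 pairs in each of these sets.

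**Figure D5:**
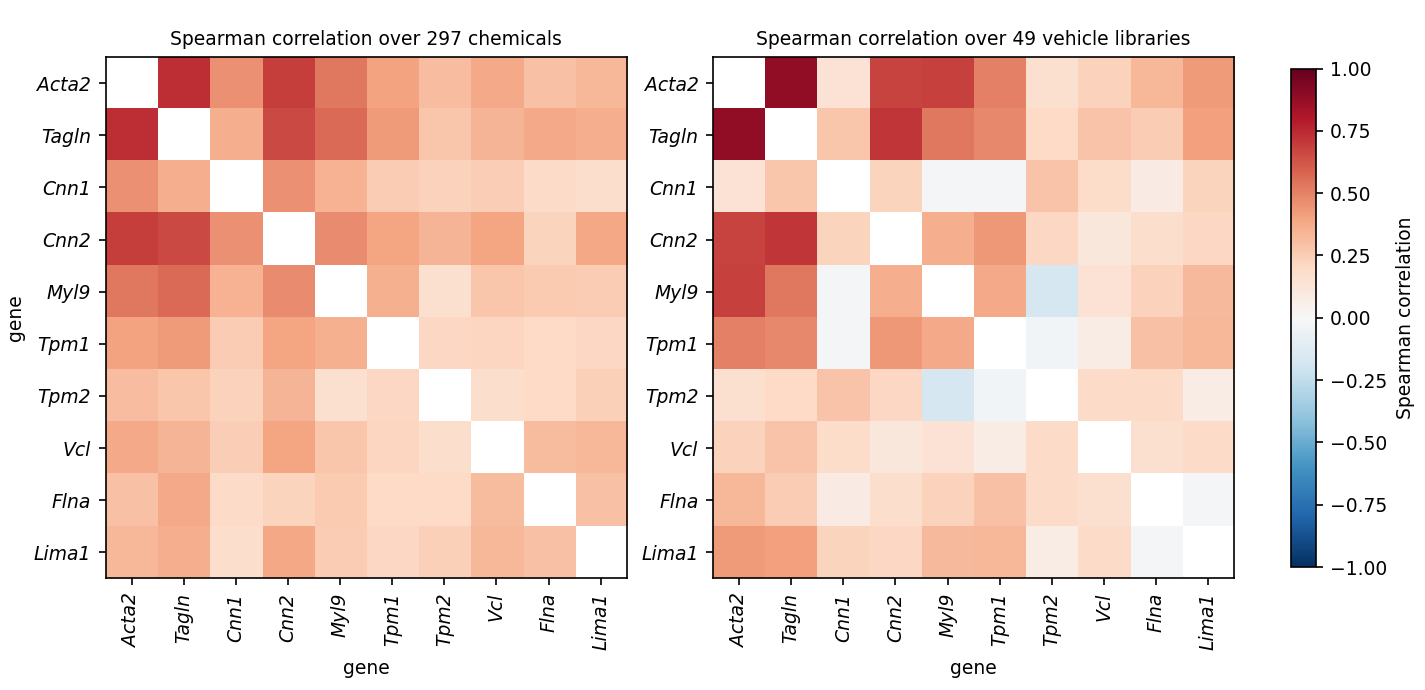
Spearman correlations between the 10 genes over the medians of 297 chemicals (left) and over 49 vehicle libraries (right), on a colour scale from -1 to 1. The block of Acta2, Tagln, Cnn2 and Myl9 is the darkest in the left panel. In the vehicle panel Cnn2 with Myl9 (0.36) is paler than Acta2 with Tpm1 (0.50). Acta2 and Tagln give 0.74 on the left and 0.88 on the right, and Cnn1 and Tpm2 are pale in the vehicle panel.

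Among all genes of the table, those most like Acta2 across the chemicals were Tagln (0.74), Cnn2 (0.69), Cald1 (0.62), Thbs1 (thrombospondin 1, 0.61) and Igfbp2 (an insulin-like growth factor binding protein, 0.60). The 95th percentile over all genes was 0.21. Across the vehicle libraries the 5 most alike were Tagln (0.88), Cald1 (0.71), Myl9 (0.68), Cnn2 (0.67) and the matrix protein Tnc (0.67), with a 95th percentile of 0.29. Myl9 ranked 15th, Cnn1 50th and Tpm1 87th among all genes across the chemicals, and Flna 273rd. Across vehicle libraries Cnn1 ranked 2723rd and Tpm2 2324th. In cluster 2 Cald1 had a median 1.00 above that of vehicle, against 0.09 for Actb and 0.0059 for Actg1.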

How the data were processed

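Reads from polyA RNA libraries were filtered with TagDust by the authors, aligned to mm9 with TopHat, cleared of ribosomal reads and assigned to RefSeq gene models by symbol. The deposited counts for pyraclostrobin are raw. For the screen the authors deposited log10 values of RPKM after quantile normalization, centring on each gene's median and removal of culture and sequencing batches, so the depth of screen libraries is unknown and batches could not be examined. Values were converted to log2 here, and a chemical is the median of its libraries. Libraries followed the sample labels, and cluster membership followed the study.

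Counts were fitted with edgeR 4.0.16 in R 4.3.3 (TMM, at least 10 counts in at least 4 libraries, quasi-likelihood test, Benjamini-Hochberg adjustment over 12324 genes, threshold 0.01). At the smallest total of 2409623 counts, genes of few CPM were measured with low precision. Screen values were fitted with limma 3.58.1 with a variance trend and a threshold of 0.05. DESeq2 1.42.0, other scaling, filters, thresholds and left-out libraries were alternatives. On simulated data the count fit called 36 of 99 genes changed by 1 on the log2 scale and 88 of 95 changed by 2. For famoxadone minus fenamidone 65 of 100 changed by 1 and 86 of 100 changed by 2 were called. For topotecan against vehicle 93 of 100 changed by 0.5 were called. In the first 2 of these fits a change of 1 can therefore be missed. A table for sulforaphane with fenamidone was not used here, since its 6 value columns share 1 name and could not be assigned to samples. The genes named were the 10, up to 4 of each list with the largest differences among those that passed, the actins, the 5 most like Acta2 and the 10 highest and 10 lowest chemicals. The genes, lists and tests were chosen with earlier results of these data known.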

Additional observations from a re-analysis of the deposited data

Results flagged for a closer look

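In groups of 4 libraries the gap of the most distant library was divided by the range of the group, on log2 of CPM plus 0.5 for counts, and 3 values of the 31 groups examined passed Dixon's limit for 4 libraries. Acta2 in vehicle replicate 1 stood at 80.2 CPM, above the 29.4 to 34.5 CPM of the other vehicle libraries. Cnn2 in that library stood at 34.6 CPM, above 12.5 to 14.8 CPM. Tpm1 in pyraclostrobin replicate 3 stood at 379.4 CPM, above 304 to 314 CPM. Chance marks about 1 in 20 such groups. Without vehicle replicate 1 the log2 fold changes were 4.43 for Acta2 and 3.53 for Cnn2, and all 10 genes were still called higher.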

How the results depend on the processing

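Among the alternatives run, 412 of 470 recomputed values kept their direction and call or, where there was no call, moved within a set limit. The limit was 1.5 times for counts, 0.05 for correlations and the SD of the vehicle libraries for medians of cluster 2. Every called gene of the 10 that could be fitted stayed called. The pyraclostrobin comparison called 2631 genes in all, 4301 at a threshold of 0.05 and 4773 without both libraries of the number shared with the screen, a choice made after seeing the data. Leaving out 1 library gave 1682 (without vehicle replicate 3) to 4052 (without vehicle replicate 1) calls, and 8 to 10 of the 10 genes were called, since Cnn1 and Tpm2 no longer met the filter without a pyraclostrobin library. With a replicate block on the number in the column names 3135 genes were called, 10 of the 10 among them. Controls are called matched in the study's text, but no source ties the numbers to a shared culture. The numbers were not taken as pairs, since the correlations of deviations were 0.38, 0.10, -0.029 and 0.16, and of the pyraclostrobin libraries replicate 1 alone was closest to its own number. Topotecan called 6090 genes and 1788 among those with an SD over 0.1, where fewer genes were tested. The pairs of outer site inhibitors gave 9 calls over all genes, 4 among genes with an SD over 0.1, and 3 (without fenamidone replicate 2) to 33 (without fenamidone replicate 1) without 1 library, the lone sample then being assumed to vary like the others. Where leaving out a library moved a count, the cause was not tested. The differences of single genes between inhibitors were not called and changed sign 17 times over all fits without 1 library. For famoxadone minus fenamidone the range was Myl9 from -0.042 to 0.045, Cnn2 from -0.22 to 0.084, Tpm2 from -0.45 to 0.26, Flna from -0.19 to 0.34 and Lima1 from -0.033 to 0.18. For trifloxystrobin minus fenamidone the range was Myl9 from -0.039 to 0.0037, Cnn2 from -0.0070 to 0.18, Tpm2 from -0.31 to 0.40 and Cnn1 from -0.079 to 0.047. For trifloxystrobin minus famoxadone the range was Myl9 from -0.063 to 0.024, Tpm2 from -0.17 to 0.45 and Acta2 from -0.88 to 0.085. The chemicals above the vehicle range on the mean of the 10 genes were 23, and 8 with a limit of 3 SD. Setting aside the most extreme vehicle library of each gene, chosen after seeing the data, moved 8 of the 20 counts per gene by over 1.5 times, as given with the counts. The median correlation of the 45 pairs was 0.34 by Spearman, 0.43 by Pearson and 0.26 without clusters 2, 3 and 4. The comparison of sulforaphane with fenamidone was not run. Depth limits Cnn1 and Tpm2, which had few counts without pyraclostrobin.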
